A study of Drosophila melanogaster with 6 samples.

Results

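The genes of the larval serum proteins and of a pair of fat body proteins were followed in RNA-seq libraries of Drosophila larval intestines. They were the 4 hexamerin genes Lsp1alpha, Lsp1beta, Lsp1gamma and Lsp2 and the genes Fbp1 and Fbp2, chosen by symbol from the 17895 genes of the deposited count table, and all 6 were found. The libraries came from whole dissected intestines, 3 from the genotype labelled EcRi and 3 from the control genotype. Both genotypes carried Tub-LexA driving a LexO hairpin against spok, an enzyme gene of ecdysone synthesis, together with Tub-GAL80ts and a UAS hairpin against EcR, the gene of the ecdysone receptor. By the crosses of the methods, EcRi also carried the enterocyte driver Myo1A-GAL4 and the control carried no GAL4, whereas the control titles name myo1a-con, and the sources used here do not resolve the difference. The Myo1A driver is described by the study as having very low expression in the prothoracic gland too. Eggs were laid over 8 h, and larvae of both genotypes spent 6 days at 18 °C up to the last larval molt and 4 days at 29 °C, a temperature at which GAL80ts no longer represses GAL4. How many larvae made up a library, and their sex, are not given in the sources used here.

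Hexamerins are large storage proteins of insect blood. The larval fat body, the tissue that serves as liver and fat store, secretes them into the haemolymph during the last larval instar, and it takes them up again before pupation as a reserve of amino acids for metamorphosis. The Lsp1 genes encode the alpha, beta and gamma subunits of larval serum protein 1, and Lsp2 encodes the subunit of larval serum protein 2. Fbp1 encodes the fat body receptor for this uptake, and it is known as a gene that the fat body switches on in response to ecdysone late in the last instar. Fbp2 encodes a fat body protein related to alcohol dehydrogenase. None of the 6 is known as a gene of enterocytes.

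The libraries held between 200890663 and 246255664 counts, so that 1 count corresponded to between 0.00323 and 0.00634 CPM, the count relative to the library total after scaling with the TMM factors of edgeR, which correct for differences in composition. EcR itself had 28.8, 28.7 and 32.0 CPM in the libraries labelled EcRi, against 45.6, 28.3 and 26.6 CPM in the control libraries, and these ranges overlapped. The EcR transcript of whole intestines thus does not show a knockdown (log2 fold change -0.17, adjusted p = 0.517 in edgeR), and the name EcRi is used here as the libraries are labelled. Genes of the midgut were abundant in every library, and a list of 14 of them summed to between 15137 and 21220 CPM in EcRi and between 63593 and 86902 CPM in the control. This lower sum in EcRi was not shared by all of them, as the enterocyte gene Myo31DF lay between 642 and 692 CPM in EcRi and between 660 and 720 CPM in the control.

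The 6 genes lie apart from each other in the BDGP6 (dm6) genome. Lsp1alpha (FBgn0002562) occupies X:12490291-12492982 on the plus strand, Lsp1beta (FBgn0002563) 2L:898500-901316 on the plus strand, and Lsp1gamma (FBgn0002564) 3L:66430-68995 on the plus strand. Lsp2 (FBgn0002565) lies at 3L:12129393-12131869 on the plus strand, Fbp1 (FBgn0000639) at 3L:14094589-14098053 on the minus strand, and Fbp2 (FBgn0000640) at 2L:9426784-9427917 on the plus strand. The 3 Lsp1 genes have 2 exons each and Lsp2 has 1. The antisense gene asRNA:CR11538 overlaps Lsp2 and CG42847 overlaps Fbp2 on the same strand. The counts were not split by strand in the sources used here, so reads of these 2 members cannot be told apart from reads of the overlapping genes. Reads shared between the related Lsp1 genes could also have been divided among them or dropped, since the counting of multi-mapping reads is not stated.

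One library of each genotype stood far above the others in these genes. The 6 genes together reached 949.9 CPM in EcRi replicate 3, against 333 CPM in replicate 1 and 193 CPM in replicate 2. In the control they reached 782 CPM in replicate 1, against 124 CPM in replicate 2 and 37.3 CPM in replicate 3. The level in EcRi replicate 3 was between 1.45 times (Lsp1alpha) and 27.8 times (Fbp2) the mean of the other EcRi libraries, and all 6 genes were higher in it. The level in control replicate 1 was between 5.72 times (Lsp1beta) and 42.8 times (Lsp1alpha) the mean of the other control libraries, again for all 6 genes. Over all tested genes and elements with counts in every library, the median of these ratios was 0.978 for EcRi replicate 3 and 0.999 for control replicate 1, and 2.46% and 2.88% of them exceeded 2. The spread of the members between replicates was wide in general: the highest library was between 1.69 times (Lsp1alpha) and 36.5 times (Fbp2) the lowest in EcRi and between 7.44 times (Fbp1) and 141 times (Lsp1alpha) the lowest in the control, where the median over all was 1.26 in EcRi and 1.24 in the control. In bulk tissue, more fat body carried over with the intestine and more RNA of these genes per cell cannot be told apart. The fold changes of the 6 members and the summed hexamerins are therefore given with and without these 2 libraries, and values below rest on all 6 libraries where nothing else is said.

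**Figure D1:**
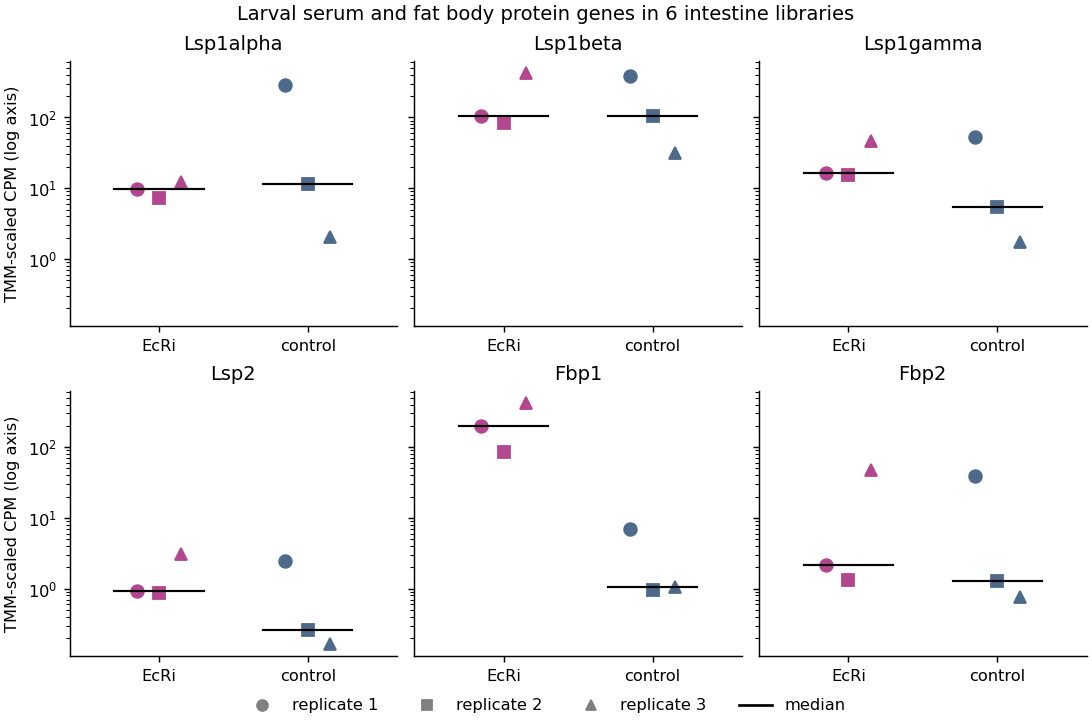
TMM-scaled CPM on a log axis of the 6 genes in each library, with EcRi on the left and the control on the right of each panel, symbols for the replicates and a line at the median of 3. Fbp1 is the gene whose genotypes do not overlap, with 84.1 CPM or more in EcRi and 7.05 CPM or less in the control, while EcRi replicate 3 and control replicate 1 are the highest libraries of their genotype in all panels.

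Fbp1, the receptor gene, was the member that separated the genotypes. It had 201 CPM in EcRi replicate 1, 84.1 CPM in replicate 2 and 416 CPM in replicate 3. The control libraries had 7.05, 0.948 and 1.07 CPM in replicates 1, 2 and 3. The lowest EcRi library thus lay above the highest control library, although both genotypes varied several-fold within themselves. The mean was 234 ± 168 CPM in EcRi and 3.02 ± 3.49 CPM in the control (SD, n = 3 each). Fbp1 was 76.9-fold higher in EcRi, a log2 fold change of 6.27 with a standard error of 1.24 (adjusted p = 0.00771, edgeR, Benjamini-Hochberg over 12193 genes and elements). An exact permutation test of the Fbp1 levels, two-sided, gave p = 0.1, the smallest that 3 libraries against 3 allow.

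Fbp1 was the 1 member of 6 called higher, and no member was called lower at an adjusted p below 0.05. In the whole table the same test called 30.1% of the tested genes and elements higher and 29.3% lower, 59.5% in all, so 1 call among 6 is not above the background. Fbp1 was also the 1 member without overlap between the genotypes, where 34.9% of all tested genes and elements lay higher in EcRi without overlap and 68.3% lay without overlap in either direction. The size of its change was less common: 176 of the 12193 were called with a larger log2 fold change. The median log2 fold change was 0.36 over the 6 members and 0.03 over all tested genes and elements.

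The change of Fbp1 did not depend on the 2 high libraries. Its log2 fold change was 5.55 without EcRi replicate 3, 7.84 without control replicate 1 and 7.14 without both (standard error 0.582, adjusted p = 0.00221 in edgeR with 2 libraries each). The libraries were singled out by the levels of these same genes, so leaving them out narrows the spread by construction. The adjusted p without both is therefore not a test. Over 15 alternative analyses, these fits among them, the log2 fold change of Fbp1 lay between 5.55 and 7.84, with adjusted p values from 9.44e-08 to 0.0345. The ratio of Fbp1 to the hexamerins within a library does not change with the scaling. Fbp1 took 60.7% of the summed counts of Fbp1 and the 4 hexamerins in EcRi replicate 1 (95% Wilson interval 60.3 to 61.0), 44.0% in replicate 2 (43.6 to 44.4) and 46.2% in replicate 3 (46.0 to 46.3). In the control it took 0.950% in replicate 1 (0.901 to 1.0003), 0.773% in replicate 2 (0.664 to 0.899) and 2.93% in replicate 3 (2.53 to 3.40). These intervals cover counting error only. The lowest share in EcRi was far above the highest in the control, also between the 2 high libraries, and the genotypes differed by 6.27 in the log2 ratio of Fbp1 to the hexamerins (two-sided exact permutation test, p = 0.1, the smallest possible with 3 against 3).

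**Figure D2:**
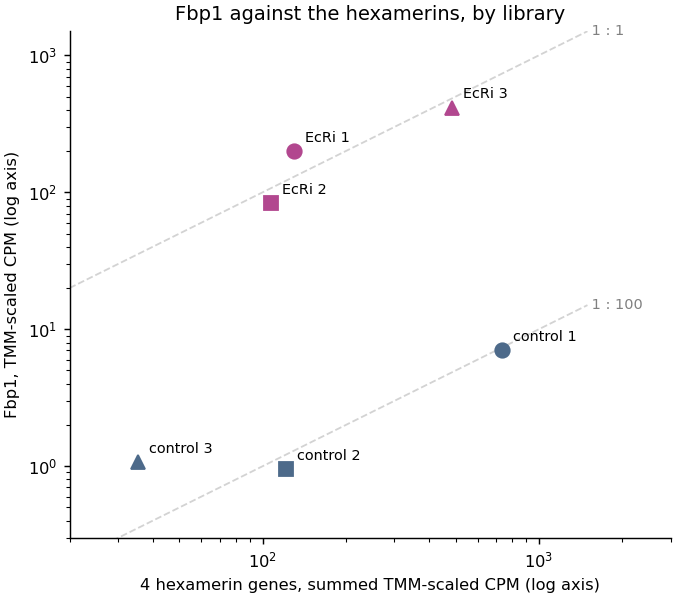
Fbp1 against the sum of the 4 hexamerin genes in each of the 6 libraries, both in TMM-scaled CPM on log axes, with dashed lines at ratios of 1 to 1 and 1 to 100. The EcRi libraries (replicates 1 to 3 as circle, square and triangle) lie near the upper line, with 0.784 to 1.54 Fbp1 counts per hexamerin count, and the control libraries near the lower one, with 0.00779 to 0.0302.

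The hexamerins did not show a difference of this kind. Summed, they reached 130, 107 and 486 CPM in EcRi replicates 1, 2 and 3, against 736, 122 and 35.4 CPM in the control replicates. The control libraries thus enclosed the EcRi libraries, and the difference in mean log2 level was 0.37 (two-sided exact permutation test, p = 0.9). It was -0.31 without EcRi replicate 3, 1.53 without control replicate 1 and 0.85 without both.

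Lsp1beta was the most abundant hexamerin transcript in every library. It had 103, 83.8 and 423 CPM in EcRi, against 389, 105 and 31.5 CPM in the control. The medians of 103 CPM in EcRi and 105 CPM in the control were nearly equal, and the log2 fold change was 0.22 (standard error 1.09, adjusted p = 0.881 in edgeR). Lsp1alpha behaved differently in 1 library. It had 9.70, 7.30 and 12.4 CPM in EcRi, against 292, 11.6 and 2.07 CPM in the control. The negative log2 fold change of Lsp1alpha, -3.38 (standard error 1.78, adjusted p = 0.159), came from control replicate 1, and without that library it was 0.51 (adjusted p = 0.613, within a range from 0.0537 to 0.785 over the alternatives for Lsp1alpha).

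Lsp1gamma had 16.4, 15.3 and 47.0 CPM in EcRi, against 52.3, 5.40 and 1.74 CPM in the control. Each EcRi library was above the control libraries other than replicate 1, and the fold change, 0.40 on the log2 scale (standard error 1.28, adjusted p = 0.810 in edgeR), was not past the threshold. Lsp2 was the scarcest member, with 0.912, 0.872 and 3.08 CPM in EcRi, against 2.45, 0.257 and 0.165 CPM in the control. In counts these were 222, 270 and 884 reads in EcRi and 486, 45 and 26 reads in the control. The log2 fold change of Lsp2 was 0.75 (standard error 1.16, adjusted p = 0.610).

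The calls for Lsp1gamma and Lsp2 turned on control replicate 1. Without it Lsp1gamma had a log2 fold change of 2.87 (adjusted p = 0.0474 in edgeR) and Lsp2 one of 2.92 (adjusted p = 0.0220), and 3 of the 6 members were called higher, against 26% of all genes and elements tested in that fit. Without both high libraries the values were 2.15 for Lsp1gamma (adjusted p = 0.0382) and 2.07 for Lsp2 (adjusted p = 0.00823), again with 3 members called higher and 25.5% of all tested. These libraries were singled out because the same 6 genes were highest in them. Leaving them out narrows the spread of the members by construction. The calls of these fits are therefore not a test, and the shares over all tested are not a like comparison. Over all the alternatives the adjusted p ranged from 0.0382 to 0.989 for Lsp1gamma and from 0.00823 to 0.947 for Lsp2. Lsp1alpha and Lsp1beta were not called in either fit. Without both libraries, Lsp1alpha was at 0.31 and Lsp1beta at 0.46 on the log2 scale.

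The makeup of the hexamerin counts also differed between libraries. Lsp1beta made up between 78.1 and 87.1% of them in EcRi and between 52.9 and 88.8% in the control. Lsp1alpha made up between 2.54 and 7.45% in EcRi, against 39.7% in control replicate 1 (95% Wilson interval 39.4 to 39.9), 9.51% in replicate 2 (9.12 to 9.91) and 5.85% in replicate 3 (5.26 to 6.49). Control replicate 1 was thus set apart by its Lsp1alpha as well as by its hexamerin total, while EcRi replicate 3, with the other high total, had the lowest Lsp1alpha share of all, 2.54% (2.46 to 2.63). Lsp1gamma made up between 9.67 and 14.3% in EcRi and between 4.44 and 7.10% in the control. Lsp2 made up between 0.634 and 0.813% in EcRi and between 0.211 and 0.465% in the control. The shares of Lsp1gamma and Lsp2 did not overlap between the genotypes and those of Lsp1alpha and Lsp1beta did. For CPM, 68.3% of all tested genes and elements lay without overlap. The separation of Lsp1gamma depended on the denominator. Per Lsp1beta count it had 0.111 to 0.183 counts in EcRi and 0.0517 to 0.134 in the control, which overlapped. For Lsp2 these ratios were 0.00728 to 0.0104 and 0.00246 to 0.00630, without overlap. Shares of 1 total are not independent of each other, and no call was made on them.

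**Figure D3:**
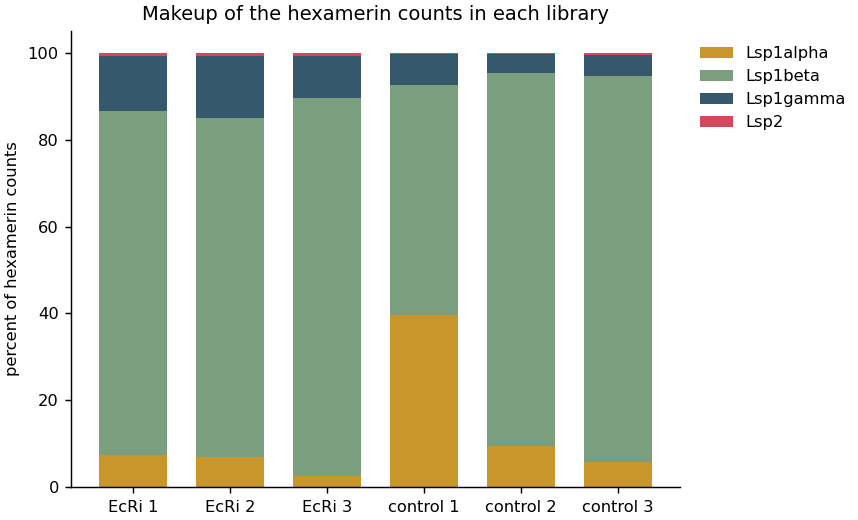
Percent of the summed hexamerin counts taken by each of the 4 genes, as stacked bars for the 6 libraries with EcRi on the left. Lsp1beta takes most of every bar, Lsp1alpha takes 39.7% in control replicate 1 and at most 9.51% elsewhere, and Lsp1gamma takes more in EcRi (9.67 to 14.3%) than in the control (4.44 to 7.10%).

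Fbp2, the alcohol dehydrogenase relative, varied more between replicates than between genotypes. It had 2.15, 1.32 and 48.2 CPM in EcRi, against 39.5, 1.27 and 0.773 CPM in the control. The highest library of each genotype was far above the others, at a similar level in both genotypes. The log2 fold change of Fbp2 was 0.31 (standard error 2.003, adjusted p = 0.908 in edgeR). It was -3.00 without EcRi replicate 3, 4.07 without control replicate 1 and 0.76 without both, and none of these passed the threshold, with adjusted p from 0.169 to 0.966 over the alternatives for Fbp2.

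**Figure D4:**
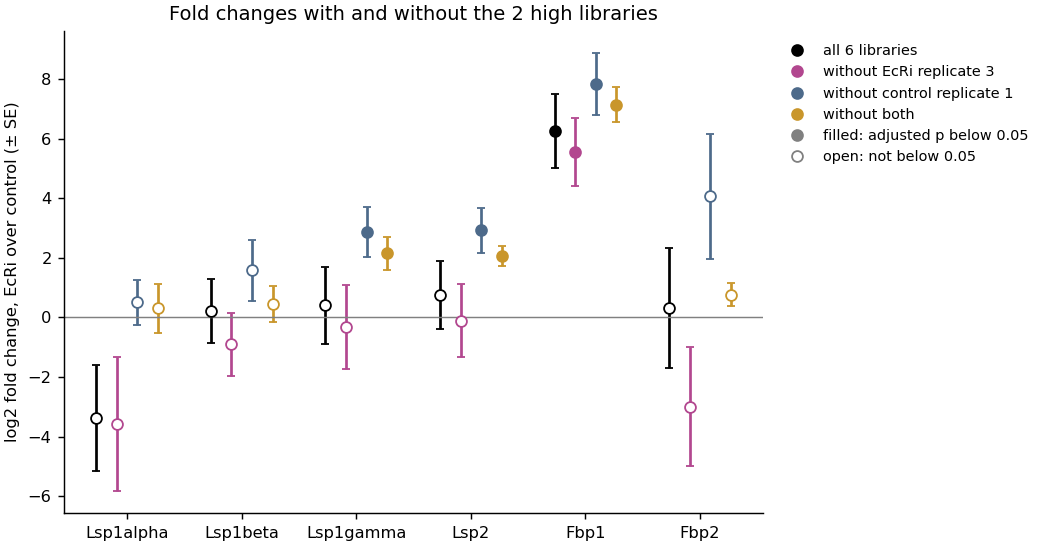
Log2 fold change of EcRi over control (± SE) for the 6 genes, fitted with all 6 libraries, without EcRi replicate 3, without control replicate 1 and without both, with filled symbols for an adjusted p below 0.05. Fbp1 is filled in all 4 fits, between 5.55 and 7.84, and Lsp1gamma and Lsp2 are filled in the fits that leave out control replicate 1.

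The order of the members within a library differed between the genotypes in the place of Fbp1 and in the order of Lsp1alpha and Lsp1gamma. Per kb of exon, Lsp1beta and Fbp1 were the top pair in all EcRi libraries: Lsp1beta had 37.6, 30.5 and 154 CPM per kb in replicates 1, 2 and 3, and Fbp1 had 58.0, 24.3 and 120 CPM per kb. Their order changed from replicate to replicate, so the 2 levels did not differ beyond the spread. In the control the top gene was Lsp1beta, with 141, 38.0 and 11.4 CPM per kb, and Lsp1alpha came next, with 111, 4.41 and 0.789 CPM per kb. Lsp1gamma lay below Lsp1alpha in each control library, at 20.9, 2.16 and 0.694 CPM per kb. In each EcRi library Lsp1gamma lay above Lsp1alpha, at 6.56, 6.12 and 18.8 against 3.70, 2.78 and 4.71 CPM per kb. Fbp1 had rank 5 of 6 in each control library, with 2.03, 0.274 and 0.309 CPM per kb. Lsp2 was the lowest in every library, with 0.352 to 1.24 CPM per kb in EcRi and 0.0665 to 0.989 CPM per kb in the control.

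Other transcripts of the fat body were read from a list of 12 genes. Of these, 7 were called higher in EcRi, 2 were called lower (1 without TMM) and 3 were not called. Over all tested genes and elements, 30.1% were called higher and 29.3% lower. The median log2 fold change of the list was 2.19. The list summed to between 2304 and 2622 CPM in EcRi and between 250 and 301 CPM in the control. In EcRi most of the sum was Tsf1, the gene of the iron-binding protein transferrin, with a mean of 2004 CPM against 56.6 CPM in the control. In the control the leading gene was regucalcin, with a mean of 121 CPM against 22.7 CPM in EcRi. The sum was highest in EcRi replicate 3 and in control replicate 1, as for the 6 members, but by far less, with 2622 CPM against 2304 and 2310 CPM in the other EcRi libraries and 301 CPM against 273 and 250 CPM in control replicates 2 and 3. The list as a whole did not follow these libraries. The higher sum rested on apolpp and Obp99b in EcRi replicate 3 and on apolpp in control replicate 1, both described below. Tsf1 was lowest in EcRi replicate 3, with 1889 CPM against 2037 and 2085 CPM in replicates 1 and 2. Without both high libraries, 8 genes of the list were called higher and 2 lower, where 25.5% of all tested genes and elements were called higher. Other called genes of the list were Gnmt (log2 fold change 5.01), Hn (4.59), Ilp6 (3.45) and Apoltp (2.56) among the higher ones, and regucalcin (-2.41) and ppl (-0.97) among the lower ones. The 3 genes not called were apolpp, Obp99b and srp, and srp was nearly level (-0.01), with means of 6.78 CPM in EcRi and 6.84 CPM in the control. All 12 were detected in every library. A second list of 8 genes that fat body and gut share had 6 called lower and none higher, FASN1 (-2.89), which encodes fatty acid synthase, among them. Its gene Pepck1 had no counts in any library.

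apolpp, which encodes the lipophorin of the haemolymph and is a defining fat body transcript, was the 1 gene of these 12 that was more than 2 times as high in both high libraries as in the rest of their genotype. It had 72.4, 53.6 and 216 CPM in EcRi, against 58.4, 12.1 and 4.88 CPM in the control. The ratio of EcRi replicate 3 to the mean of the other EcRi libraries was 3.42 for apolpp, and that of control replicate 1 was 6.87. The genotypes overlapped, and apolpp was not called (log2 fold change 2.18, standard error 1.09, adjusted p = 0.142 in edgeR). Obp99b, an odorant-binding protein gene of the fat body, was 10.5 times as high in EcRi replicate 3 as in the other EcRi libraries but 1.27 times as high in control replicate 1. The other 10 listed genes lay between 0.738 and 2.36 times for EcRi replicate 3 and between 0.743 and 1.43 times for control replicate 1. What part adhering fat body had in the levels of the 6 members was not tested.

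**Figure D5:**
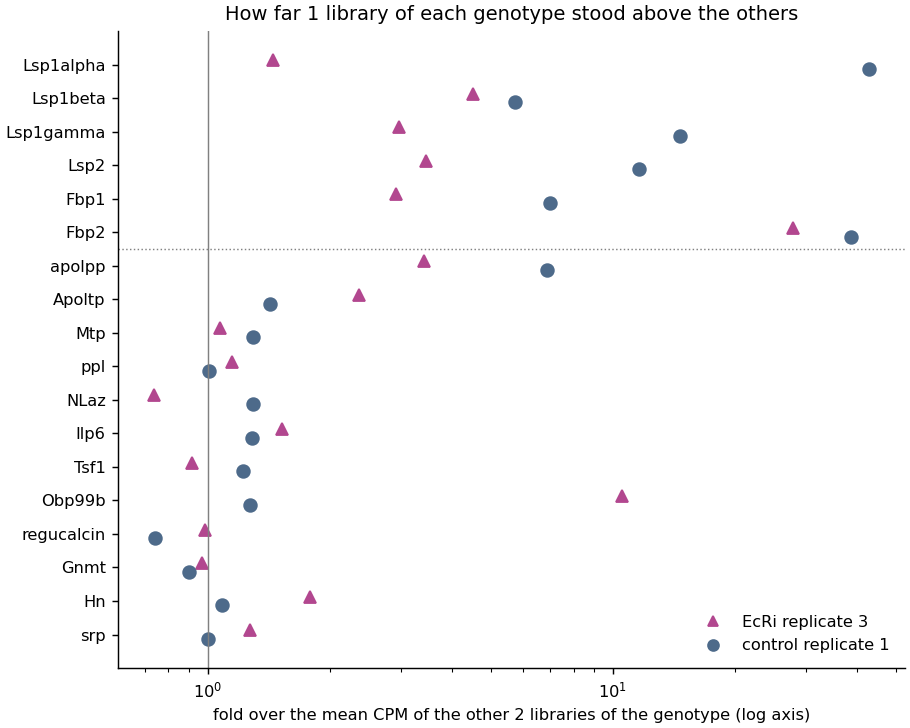
Level of EcRi replicate 3 (triangles) and control replicate 1 (circles) as a multiple of the mean CPM of the other 2 libraries of the same genotype, on a log axis, for the 6 members above the dotted line and 12 other fat body genes under it. All 6 members lie above 1 in both libraries, up to 42.8 for Lsp1alpha in control replicate 1, while most other fat body genes lie near 1 and apolpp lies at 3.42 and 6.87.

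Set against apolpp in the same library, Fbp1 and the hexamerins moved apart. Fbp1 had between 1.57 and 2.78 counts per apolpp count in EcRi and between 0.0782 and 0.219 in the control, a ratio of geometric means of 16.0. The 4 hexamerins together had between 1.80 and 2.25 counts per apolpp count in EcRi and between 7.26 and 12.6 in the control, a ratio of geometric means of 0.207. Neither ratio overlapped between the genotypes, and neither was part of a test. Fbp1 was thus higher in EcRi on the scale of all counts and relative to either the hexamerins or apolpp. The hexamerins were lower in EcRi relative to apolpp, while on the scale of all counts their difference of 0.37 was within the spread between libraries. Per count of the 12 listed fat body genes together, the hexamerins had 0.0464 to 0.185 counts in EcRi and 0.142 to 2.45 in the control. The ratio of geometric means was 0.147, also lower in EcRi, but the ranges overlapped. The lack of overlap thus depended on the choice of apolpp, while the direction did not. The summed list was itself led by Tsf1 in EcRi and by regucalcin in the control. Relative to Lsp1beta, Fbp2 gave 0.0158 to 0.114 counts in EcRi and 0.0122 to 0.102 in the control, ranges that overlapped.

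Markers of other tissues that an intestine preparation can hold were read in the same way. Their calls stand beside 30.1% of all tested genes and elements called higher and 29.3% called lower. The 11 haemocyte genes summed to between 266 and 328 CPM in EcRi and between 266 and 305 CPM in the control, most of it crq, and 1 of them, lz, was called higher and none lower, but 6 were called higher without TMM. In EcRi replicate 3 the median haemocyte gene stood at 0.940 times, and in control replicate 1 at 0.613 times, the mean of the other libraries of its genotype, with Nplp2 as the gene that stood out at 6.601 times in EcRi replicate 3 and 1.64 times in control replicate 1. The phenoloxidase genes, relatives of the hexamerins that are expressed in blood cells, summed to between 0.888 and 4.96 CPM in EcRi and between 23.0 and 39.3 CPM in the control, with 2 of 3 called lower. None was called without EcRi replicate 1 or with a replicate block, and 1 was called without control replicate 2 or without a filter on low counts. PPO1 and PPO2 were low in EcRi replicate 3, at 0.191 and 0.131 times the other EcRi libraries. The 9 salivary gland genes stayed at or under 2.34 CPM in sum in every library. The glue genes Sgs3 and Sgs5 had no counts in the control libraries and Sgs5 at most 148 reads in an EcRi library, and of 3 tested genes 2 were called higher. Of 7 Malpighian tubule genes, 1 was called higher (Uro) and 5 lower, against 2 higher and 3 lower without TMM. Of 9 tracheal genes 7 were called higher and none lower, with sums between 778 and 875 CPM in EcRi and between 108 and 162 CPM in the control. Most of these sums was serp, verm and uif, with means of 363, 281 and 144 CPM in EcRi. Of the scarcer genes of the list, btl (log2 fold change 0.18) and dysf (-0.26) were not called, while vvl (0.38) and trh (1.34) were called higher. Of 14 midgut genes, 1 was called higher (3 without TMM) and 9 lower. The tracheal sum was higher in EcRi, as Fbp1 was, and the midgut sum was lower, and the part of either tissue in the change of Fbp1 was not tested.

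A list of 15 transcription factor genes was also read, most of them of the ecdysone cascade, to which Fbp1 is known to respond in the fat body. Of these, 9 were called higher in EcRi and 1 was called lower (usp, the partner of EcR, log2 fold change -0.39, not called lower without TMM). The 5 others, EcR, Eip74EF (0.04), Hr39 (0.17), Kr-h1 (0.24) and Aef1 (0.09), were not called. Over all tested genes and elements, 30.1% were called higher and 29.3% lower. The median of the 15 genes was 0.65 on the log2 scale. Among the called genes were the nuclear receptor gene Hr4 (4.42) and Eip93F (2.05), a factor of the metamorphic response. The genes called higher also included ftz-f1 (0.65), which the study describes as repressed by ecdysone signalling. Hr3, another nuclear receptor gene, was also called, on 49, 65 and 51 reads in EcRi and 2, 6 and 1 reads in the control. br, a zinc finger factor of the same cascade, had 72.5, 58.9 and 95.5 CPM in EcRi, against 44.6, 29.1 and 20.5 CPM in the control (log2 fold change 1.27, standard error 0.322, adjusted p = 0.0156 in edgeR). Over the 15 genes, the median ratio to the other libraries of the genotype was 1.23 for EcRi replicate 3 and 1.22 for control replicate 1. For br it was 1.45 and 1.80, whereas for usp it was 0.960 and 0.985. The part of these factors in the change of Fbp1 was not tested.

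The genes most alike in pattern were sought among 5890 tested genes with a mean of at least 10 CPM, by Pearson's r of log2 CPM over the 6 libraries, which share their genotype and scaling. For Fbp1 these were Mvl, dbr, emc, CG1233 and CG12025, with r between 0.994 and 0.999. Mvl, a metal ion transporter gene, had 335, 285 and 379 CPM in EcRi, against 172, 126 and 132 CPM in the control. Its log2 fold change was 1.22, much smaller than that of Fbp1. For the summed hexamerins they were CG6686, Set1, Flo2, Nipped-B and IntS1, with r between 0.944 and 0.975, and CG6686, Flo2 and Set1 were also among those of Fbp2, with brun and lgs. Set1 had 48.5, 45.3 and 54.2 CPM in EcRi, against 56.6, 46.9 and 43.7 CPM in the control. These genes followed the order of the libraries but with differences far smaller than those of the hexamerins or Fbp2, so none of them varied on the scale of the 6 members.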

How the data were processed

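Total RNA of whole larval intestines was measured in 6 libraries, 3 per genotype, prepared per the labels with a Qiagen RNeasy kit (the methods name TRIZOL) and a SMARTer kit. Reads were processed by the authors with Trim Galore! (adaptors), HISAT2 (alignment to dm6) and featureCounts, with versions not given in the sources used here. The deposited values are raw counts per gene or transposable element, with no normalization. Of the gene identifiers, 99.8% were found in the Ensembl release 115 annotation of BDGP6, whose coordinates and exon lengths are used. No sequences of the genes were used here.

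Counts were fitted in R 4.3.3 with edgeR 4.0.16: filterByExpr kept 12193 of 24278 entries, TMM gave the scaling, and EcRi was set over control by quasi-likelihood F tests with robust dispersions, with Benjamini-Hochberg adjustment over all tested entries and a threshold of 0.05. The methods name limma-voom, which was run as an alternative (limma 3.58.1), as was DESeq2 1.42.0. The standard error was taken as the fold change over the square root of F. CPM values are counts over the TMM-scaled totals of tested entries, log2 CPM for the likeness search used a prior count of 2, and exact permutation tests enumerated the library labels. Alternatives were RLE factors, totals without TMM, no filter, at least 10 counts in every library, genes only, both other tools, a replicate block and each library left out. Leaving out EcRi replicate 3 and control replicate 1 together, and the ratios to apolpp, to Lsp1beta and to the summed fat body list, were added after the values were seen. The fit was tested on simulated data. Counts of any pair of replicates differed by far more than sampling noise, so each library was used as 1 sample. Whether replicates came from separate cultures is not stated, so p-values measure the spread between these libraries.

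The named genes were the 6 members, the 5 most alike genes by rule, EcR, and the leading or defining genes of the marker lists. Members and lists were chosen with earlier results of these data known.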

Additional observations from a re-analysis of the deposited data

How the results depend on the processing

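In all 15 alternatives Fbp1 was higher in EcRi with an adjusted p under 0.05. Scaling by library totals without TMM moved the median over all tested entries, on the log2 scale, from 0.03 to 0.68 and changed the calls from 3676 higher and 3574 lower to 6982 higher and 1546 lower, but left the members with 1 call higher and none lower, and Fbp1 at 6.89. When single libraries were omitted, the fold change (log2) lay between -3.94 and 0.51 for Lsp1alpha, -0.90 and 1.58 for Lsp1beta, -0.32 and 2.87 for Lsp1gamma, -0.11 and 2.92 for Lsp2, 5.55 and 7.84 for Fbp1 and -3.00 and 4.07 for Fbp2. The number of members called higher lay between 1 and 3 (3 without control replicate 1), and the difference in summed hexamerins between -0.66 and 1.53. Lsp1beta, Lsp1gamma, Lsp2 and Fbp2 fell below 0 without EcRi replicate 3, and Lsp1beta (-0.03 and -0.26), Lsp1gamma (-0.03 and -0.12) and Fbp2 (-0.21 and -0.22) also without control replicate 2 or 3. With both high libraries left out, an alternative chosen after seeing the levels of these same genes, Lsp1alpha turned to 0.31, Lsp1gamma passed the threshold at 2.15 and Lsp2 at 2.07, and 3 members were called higher.

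The replicate numbers did not pair the libraries: deviations from the genotype means correlated at -0.06, 0.04 and -0.06 for the same numbers, and not every library correlated best with its own number. With a replicate block, 3328 entries were called higher and 3327 lower, Fbp1 was at 6.58 (adjusted p = 0.0273 in edgeR) and the calls of the other members did not change. DESeq2 gave no p for Lsp1alpha, Lsp1gamma, Lsp2 and Fbp2. Of 270 counts of called genes in the marker lists under the alternatives, 253 stayed within 1.5 times. With 3 libraries per genotype, the standard errors of the hexamerins and Fbp2 lay between 1.09 and 2.003 on the log2 scale, and a p that misses the threshold does not show equal levels.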
